A study of Arabidopsis thaliana with 20 samples.

Results

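PDF2.5 (AT5G63660), LCR69 (AT2G02100, also called PDF2.2) and AT2G43550 are 3 genes of the plant defensin and defensin-like family. They were chosen by their levels in these samples, and their probe sets were found by name in the annotation of the array, which gives each of them 1 probe set (247337_at, 266119_at and 260547_at) among the 22746 probe sets tested. Defensins are small, secreted, cysteine-rich peptides whose fold is held by disulfide bridges, and many of them inhibit the growth of fungi. The PDF1 class is best known for PDF1.2, which jasmonate and ethylene switch on in leaves under attack, whereas PDF2 genes are mostly expressed without attack, and PDF2.5 has been linked to cadmium binding. Defensin-like peptides also include inhibitors of digestive proteases, such as the trypsin inhibitors TI1 and TI2, whose genes stand near AT2G43550 in the TAIR10.1 gene order.

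The arrays measured root-tip RNA of 7-day-old Arabidopsis thaliana seedlings (Col-0) that carried a FLAG-tagged ribosomal protein, RPL18B, under 1 of 4 promoters. Ribosomes pulled down by the tag gave polysomal RNA of pSCR (endodermis per the labels), pSHR and pWOL (both vascular per the labels) and p35S, which is active in most cells. Total RNA came from the p35S line, from the lysate that also gave its polysomes. Each of these 5 RNA populations was sampled after 2 h of argon (hypoxia) and after 2 h in air, with 2 arrays a group and 20 arrays in all, all of them from plants with the tag. The labels do not say whether a line is 1 transformant, how many seedlings were pooled, or whether the arrays of a group are separate cultures; p-values rest on differences among arrays that could be technical repeats. Values are log2 levels; a difference of 1 is 2-fold.

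The treatment and the lines were checked first. All 6 low-oxygen genes with a named probe set rose in all 5 populations (30 of 30 tests), by 3.46 to 7.71 log2 units. Of 14 endodermis markers 3 were measured (JKD, GSO1 and AT1G61590), and all 3 were higher in pSCR than in p35S in air, by 1.81 to 2.32; 1 of the 3, GSO1, passed in hypoxia. In pWOL, too, JKD (2.59 in air) and GSO1 (1.15 in hypoxia) were higher than in p35S. Of 19 stele markers 3 were measured (PHV, LHW and OPS), and 0 of them were called higher in pSHR or pWOL than in p35S by limma in either treatment, whereas PHV and LHW were called lower in pWOL in air. Of 4 cortex markers 3 were measured. By limma 1 of 3 was called higher than in p35S in air in pSCR, in pSHR and in pWOL. In hypoxia 1 of 3 was called higher in pSHR and in pWOL, and 0 in pSCR. Of 10 epidermis and root hair markers 2 were measured, and 0 were called in these comparisons. Some cortex and epidermis markers were also called lower in p35S than in total RNA, as given below. That p35S polysomes sample all cell types evenly was thus not shown. Probe sets of SCR, SHR and WOL themselves were not analysed here. Of the control probe sets, the GAPDH 3 prime minus 5 prime difference, a sign of RNA length, ran from 3.16 to 4.08 in p35S arrays and from 3.95 to 5.11 in all other populations. Replicate 2 of pSCR in hypoxia stood apart in its control for 25S ribosomal RNA, at 10.18, against 12.69 or more on every other array.

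Which comparison singled out the 3 genes is not recorded, so their ranks were looked up among the called probe sets of 1 gene without overlap between the groups' arrays, where called means a limma adjusted p under 0.05. PDF2.5 had the strongest deficit of all in p35S polysomes against total RNA in air. AT2G43550 had the strongest deficit in pSCR against p35S in air, and LCR69 ranked 10 there. For this reason levels that set one population against another are given below as descriptions, with standard errors and no test. Tests are kept for hypoxia against air, for pSHR against pWOL, and for the hypoxia responses of pSHR and pWOL against that of p35S. These tests are not independent of the choice: by the same ranks, comparisons in hypoxia and those of pSCR with pSHR and pWOL may have contributed to it, so arrays of all 5 populations and both treatments enter both kinds of value.

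Of the 3 genes PDF2.5 had the widest gap between ribosome-bound and total RNA. In hypoxia it read 6.15 and 6.49 in p35S polysomes, against 8.74 and 8.67 in total RNA. In air it read 6.11 and 6.26 in p35S polysomes, against 10.44 and 10.12 in total RNA. Both p35S arrays lay far below both arrays of total RNA from the same line in each treatment. For this and later separations between populations, the share of all probe sets with such a separation is not given. The difference was -2.39 ± 0.47 log2 units (SE) in hypoxia and -4.10 ± 0.47 in air, the second being a 17.1-fold lower level in the polysomes. The GAPDH 3 prime minus 5 prime difference was also lower in p35S (3.16 to 4.08) than in total RNA (4.14 to 4.79), and its part in this gap was not tested. By limma in air, 2 of 2 measured epidermis and root hair markers were called lower in p35S than in total RNA (-2.47 and -2.42). So was 1 of 3 cortex markers, whereas 2 of 3 stele markers were called higher and 0 of 3 endodermis markers were called. In hypoxia 1 epidermis and 2 cortex markers were called lower and 1 stele marker higher. The part of these markers in the gap was not tested. In this and all later values from root tips, fewer cells of a type and less RNA per cell cannot be told apart.

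In air the other tagged lines all had more PDF2.5 than p35S, and in hypoxia the levels of pSHR and p35S overlapped. In pSCR it read 7.69 and 8.44 in hypoxia, against 8.81 and 8.73 in air. In pSHR it read 8.48 and 6.44 in hypoxia, against 8.12 and 8.69 in air. In pWOL it read 6.59 and 6.71 in hypoxia, against 7.78 and 8.18 in air. In air all arrays of these 3 lines lay between those of p35S and those of total RNA, and the highest of the 16 polysomal arrays (8.81) stayed below both arrays of total RNA in air. Relative to p35S in air, PDF2.5 was higher by 2.58 ± 0.47 in pSCR, 2.22 ± 0.47 in pSHR and 1.80 ± 0.47 in pWOL. In hypoxia these differences were 1.75 ± 0.47, 1.14 ± 0.47 and 0.33 ± 0.47. The pSHR value in hypoxia was 0.12 without pSHR replicate 1 and 2.17 without pSHR replicate 2, and that of pWOL ran from 0.16 to 0.50 without single arrays. The 3 lines share the p35S arrays as their common comparator. In air 1 of 3 cortex markers was also called higher than in p35S by limma in each of these lines. The part of cortex markers in the PDF2.5 differences was not tested.

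The groups of PDF2.5 ran from total RNA in air (10.28) at the top to p35S in hypoxia (6.32) and in air (6.18) at the bottom. Total RNA in air stood clear of the next group, pSCR in air (8.77). From there down to pWOL in hypoxia (6.65), each of these 7 groups overlapped its neighbour in the order, although groups farther apart did not: both pWOL arrays in hypoxia (6.71 at most) lay below both arrays of every group above it but pSHR in hypoxia. The 2 arrays of pSHR in hypoxia differed by more than those of any other group of this gene (SD 1.44, n = 2).

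**Figure D1:**
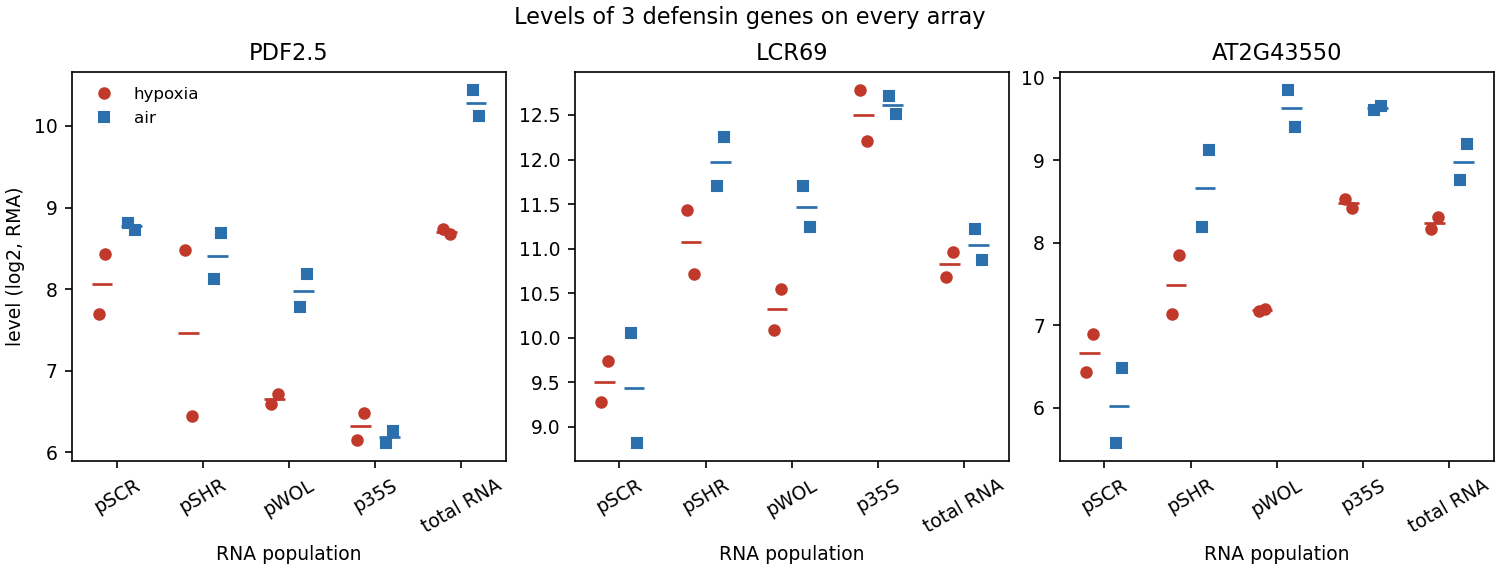
Level of each gene (y axis, log2, RMA) on each of the 20 arrays by RNA population, with hypoxia as circles left of air as squares and a line at the mean of the 2 arrays. PDF2.5 was lowest in p35S and highest in total RNA in air (10.12 and 10.44), whereas LCR69 and AT2G43550 were lowest in pSCR; the y axes differ between panels and do not start at 0.

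LCR69, a PDF2-class defensin, showed another distribution. In p35S polysomes it read 12.78 and 12.21 in hypoxia, against 12.72 and 12.51 in air. In total RNA it read 10.68 and 10.96 in hypoxia, against 11.22 and 10.87 in air. The gene was thus higher in p35S polysomes than in total RNA on every array, by 1.67 ± 0.38 in hypoxia and 1.57 ± 0.38 in air. This was opposite in direction to PDF2.5, and the share of all probe sets separated in this way is not given.

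The pSCR line had the least LCR69. It read 9.28 and 9.74 in hypoxia, against 10.06 and 8.82 in air. All 4 pSCR arrays lay below the lowest of the 16 other arrays, although the margin was small: the highest pSCR array read 10.06 and the lowest other array, from pWOL in hypoxia, 10.09. The share of all probe sets with this pattern was not counted. Relative to p35S the difference was -2.99 ± 0.38 in hypoxia and -3.18 ± 0.38 in air, the second being 9.04-fold lower. That difference in air was -3.80 without pSCR replicate 1 and -2.56 without pSCR replicate 2. Over both treatments pSCR was lower than pSHR by -2.06 ± 0.27 and than pWOL by -1.42 ± 0.27. Endodermis markers moved the other way between pSCR and p35S (3 of 3 higher in air), and 2 of 3 stele markers, PHV (-1.12) and LHW (-1.07), were called lower in pSCR in air; their part in the result was not tested.

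In pSHR LCR69 read 11.44 and 10.72 in hypoxia, against 11.70 and 12.25 in air. In pWOL it read 10.09 and 10.54 in hypoxia, against 11.71 and 11.24 in air. These levels lay between those of pSCR and p35S in each treatment. From p35S in air (12.61) at the top down to total RNA in hypoxia (10.82), each of the 7 groups overlapped the next. The pWOL hypoxia group (10.32) stood apart from the groups on both sides, and the pSCR groups (9.51 in hypoxia and 9.44 in air) overlapped each other at the bottom.

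AT2G43550, the defensin-like locus, was also lowest in pSCR. There it read 6.43 and 6.90 in hypoxia, against 5.57 and 6.48 in air. In p35S it read 8.53 and 8.43 in hypoxia, against 9.61 and 9.66 in air. All 4 pSCR arrays (6.90 at most) lay below the lowest of the 16 other arrays (7.13). How many of all probe sets share this pattern was not counted. The difference of pSCR from p35S was -1.81 ± 0.35 in hypoxia and -3.61 ± 0.35 in air, the second being 12.2-fold lower. Over both treatments pSCR was lower than pSHR by -1.73 ± 0.24 and than pWOL by -2.06 ± 0.24. Without pSCR hypoxia replicate 2, the array with the low 25S reading, the difference from p35S in hypoxia was -2.05 for AT2G43550 and -3.22 for LCR69.

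Elsewhere AT2G43550 differed less between populations. In total RNA it read 8.17 and 8.32 in hypoxia, against 8.76 and 9.19 in air. In pSHR it read 7.13 and 7.85 in hypoxia, against 8.20 and 9.13 in air. In pWOL it read 7.17 and 7.20 in hypoxia, against 9.85 and 9.41 in air. In air pWOL (9.63) and p35S (9.63) overlapped at the top of the order, and total RNA (8.98) overlapped pSHR (8.66). The p35S polysomes were above total RNA by 0.23 ± 0.35 in hypoxia and 0.66 ± 0.35 in air.

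What oxygen shortage did to the 3 genes was tested with hypoxia against air within each population. AT2G43550 fell in pWOL by 2.44 ± 0.35 log2 units, a 5.44-fold lower level, with an adjusted p of 0.000802 (limma, Benjamini-Hochberg adjustment over all probe sets). Both hypoxia arrays lay below both air arrays, and the call held without each of the 4 arrays in turn. It was the only one of 15 tests of a member's hypoxia difference to pass. In pWOL 1 of 3 members was called, against 8.52% of all probe sets (4.34% lower). All 3 had an unadjusted p below 0.05, as had 22% of all probe sets. By limma 2 of 2 measured epidermis and root hair markers were also called lower in hypoxia in pWOL (-2.51 and -2.10). Of the measured endodermis, stele and cortex markers 0 were called there. The part of these markers in the fall of AT2G43550 was not tested.

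AT2G43550 had no overlap between treatments, with hypoxia lower, in p35S, pSHR and total RNA as well as in pWOL. The share of all probe sets with such a pattern was 24.1% in p35S, 23.2% in pSHR, 23.3% in total RNA and 27% in pWOL. Its differences were -1.16 ± 0.35 in p35S (adjusted p = 0.0796), -1.17 ± 0.35 in pSHR (adjusted p = 0.0767) and -0.73 ± 0.35 in total RNA (adjusted p = 0.405) by limma. None of these passed. With the replicate number as a block, which is not shown to pair the arrays, p35S (limma adjusted p = 0.0474) and pSHR (limma adjusted p = 0.0462) passed. Without pSHR air replicate 1 the pSHR difference was -1.64 and passed (limma adjusted p = 0.0349). In pSCR, where the gene was lowest in air, the difference was 0.64 ± 0.35, with overlapping arrays (limma adjusted p = 0.347).

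PDF2.5 had a negative hypoxia difference in 4 of 5 populations, and none passed. It was -1.58 ± 0.47 in total RNA (adjusted p = 0.110), -1.33 ± 0.47 in pWOL (adjusted p = 0.101) and -0.70 ± 0.47 in pSCR (adjusted p = 0.473) by limma, with no overlap between the arrays in each of these 3. Of all probe sets 25.1% had no overlap with hypoxia lower in pSCR, and the shares in total RNA and pWOL are given above. The fit used 1 spread per gene for all groups. The pSHR hypoxia arrays (SD 1.44, n = 2) thus also widened the standard error of PDF2.5 in the other populations. The SD was 0.28 or less in the total RNA and pWOL groups. In p35S the gene read 6.49 at most and lay below the median of its own array on each array (medians from 6.47 to 6.55). The difference there was 0.13 ± 0.47 (limma adjusted p = 0.935). The pSHR value of -0.94 ± 0.47 (limma adjusted p = 0.338) rests on which array is used: it was 0.08 without hypoxia replicate 2, and -1.97 with a limma adjusted p of 0.00295 without hypoxia replicate 1.

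LCR69 had no hypoxia difference that passed. Its hypoxia difference was -1.16 ± 0.38 in pWOL (adjusted p = 0.0832) and -0.90 ± 0.38 in pSHR (adjusted p = 0.245) by limma. Neither of these lines had overlap between the arrays of the treatments. Of all probe sets, 27% in pWOL and 23.2% in pSHR had no overlap with hypoxia lower. In total RNA, p35S and pSCR the differences were -0.22, -0.12 and 0.07, each with a standard error of 0.38 and overlapping arrays. The sign turned in p35S without hypoxia replicate 2 (0.17), and in pSCR without air replicate 2 (-0.55) or hypoxia replicate 2 (-0.16).

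By limma 0 of 3 members were called in total RNA, p35S, pSCR and pSHR. Of all probe sets, 2.92%, 4.72%, 5.96% and 4.56% were called in these populations, and for 3 genes a count of 0 is near these shares. With an unadjusted p below 0.05 there was 1 member in total RNA, 1 in p35S, 0 in pSCR and 2 in pSHR, against 12.7%, 16.7%, 19.3% and 17% of all probe sets.

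**Figure D2:**
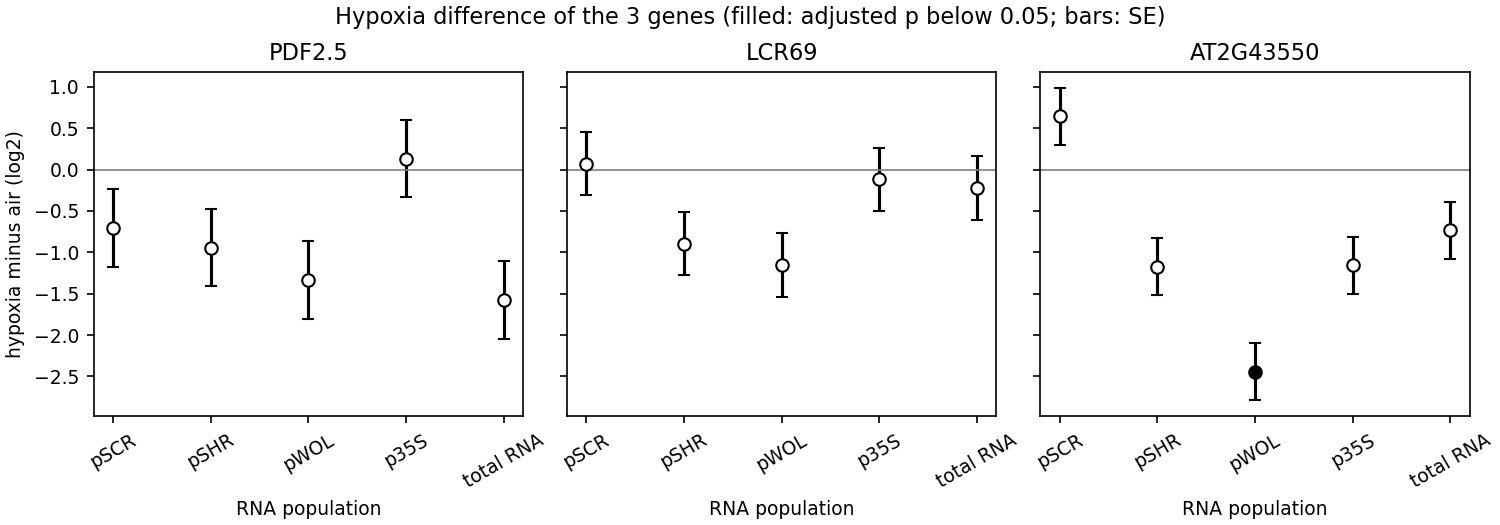
Log2 difference of hypoxia minus air (y axis) for each gene by RNA population, with bars of 1 standard error and filled points for an adjusted p below 0.05 in limma (2 arrays a group). The point of AT2G43550 in pWOL, at -2.44, is the one that is filled; in pSCR the same gene stands at 0.64.

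Whether pSHR and pWOL responded differently from p35S was tested as the hypoxia difference of the line minus that of p35S. For AT2G43550 this was -0.02 ± 0.49 in pSHR and -1.29 ± 0.49 in pWOL, with limma adjusted p of 0.996 and 0.271. For PDF2.5 it was -1.08 and -1.47, each ± 0.66, with limma adjusted p of 0.662 and 0.363. Its pSHR value was -2.10 without pSHR hypoxia replicate 1 and -0.055 without pSHR hypoxia replicate 2. PDF2.5 lay below the array median on each p35S array, and how far this limited a fall in p35S was not tested. For LCR69 the difference between responses was -0.78 and -1.04, each ± 0.54, with limma adjusted p of 0.710 and 0.447. None of these 6 differences passed, and a p above the threshold does not show that the lines respond alike. Calls were rare among all probe sets too, at 0% in pSHR and 0.158% in pWOL. Unadjusted p below 0.05 was reached by 0 members in pSHR and by 2 in pWOL (PDF2.5 and AT2G43550), against 10.1% and 13.2% of all probe sets. The 6 differences of pSHR and pWOL share the p35S arrays in air with comparisons that may have chosen the genes. Their tests are thus not independent of that choice. For pSCR the same quantity contains the difference from p35S in air by which the 3 genes may have been chosen, so it is given without a test: 1.80 ± 0.49 for AT2G43550, -0.84 ± 0.66 for PDF2.5 and 0.19 ± 0.54 for LCR69.

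The lines pSHR and pWOL were also set against each other over both treatments, 4 against 4 arrays. pSHR minus pWOL was 0.62 ± 0.33 for PDF2.5 (adjusted p = 0.386), 0.63 ± 0.27 for LCR69 (adjusted p = 0.263) and -0.33 ± 0.24 for AT2G43550 (adjusted p = 0.565) by limma. By limma 0 of 3 members passed, and 1.47% of all probe sets were called; 1 member had an unadjusted p below 0.05, as had 16.4% of all probe sets. Without pSHR hypoxia replicate 2 the PDF2.5 difference was 1.13, and it passed (limma adjusted p = 0.0156).

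The rest of the family was examined to place the 3 genes. The annotation named 14 further probe sets of defensins, low-molecular-weight cysteine-rich genes and loci next to AT2G43550. Of these, 8 stayed below the median of every array on all 20 arrays: PDF1.2, PDF1.4, LCR59, LCR66, LCR67, LCR72, LCR80 and LCR24. PDF1.2, the jasmonate-inducible defensin, ranged from 4.48 to 5.53, and PDF1.2b, whose probe set is one that can bind several transcripts, from 6.12 to 6.71. Neither was called in any of the 19 comparisons. Calls were made for 4 of the 14: LCR68, PDF2.1, AT2G43530 and AT2G43540.

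LCR68 (PDF2.3) and PDF2.1 lie near LCR69 in the TAIR10.1 gene order, 3 and 2 protein-coding genes away. LCR68 read 10.96 and 11.37 in pSCR in hypoxia, against 13.09 and 12.75 in p35S. In air it read 10.37 and 10.17 in pSCR, against 12.87 and 12.61 in p35S. It was lower in pSCR on every array, by -1.75 ± 0.25 in hypoxia (adjusted p = 0.00225) and -2.47 ± 0.25 in air (adjusted p = 0.000303) by limma. Both calls held without each array in turn. Over both treatments LCR68 was also lower in pSCR than in pSHR (-1.37 ± 0.17, adjusted p = 0.00175) and pWOL (-1.33 ± 0.17, adjusted p = 0.00177) by limma, and these calls held without each array too.

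PDF2.1 read 4.94 and 5.37 in pSCR in hypoxia, against 6.94 and 6.53 in p35S. In air it read 5.03 and 5.29 in pSCR, against 6.86 and 6.00 in p35S. It was lower in pSCR by -1.58 ± 0.26 in hypoxia (adjusted p = 0.00623) and -1.27 ± 0.26 in air (adjusted p = 0.00882) by limma. The air call was lost without p35S air replicate 1 (-0.84, adjusted p = 0.101) or pSCR air replicate 1 (-1.15, adjusted p = 0.0773), and the hypoxia call without pSCR hypoxia replicate 1 (-1.37, adjusted p = 0.0511), by limma. LCR72, another named gene of that neighbourhood and also called PDF2.6, ranged only from 4.44 to 5.02. Short defensin transcripts of neighbouring genes can resemble each other, and whether their probe sets bind each other's transcripts was not tested.

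In all, 2 of the 14 further genes, LCR68 and PDF2.1, were called lower in pSCR than in p35S in each treatment and 0 higher, against 3% of all probe sets called lower in hypoxia and 5.53% in air. The median difference of the 14 was -0.19 in hypoxia and -0.16 in air, and that of all probe sets 0.00 in both. The same 2 genes were lower in hypoxia in pSHR than in p35S (LCR68 -1.01 and PDF2.1 -1.15, against 2.07% of all probe sets called lower) and in pWOL than in p35S (-1.44 and -1.48, against 4.44%). In pSHR both calls were lost without any 1 of the 4 arrays, with differences from -1.18 to -0.84 for LCR68 and from -1.35 to -0.94 for PDF2.1. In pWOL both were lost without pWOL hypoxia replicate 1 (-1.21 and -1.35, limma adjusted p = 0.0686 and 0.0683).

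**Figure D3:**
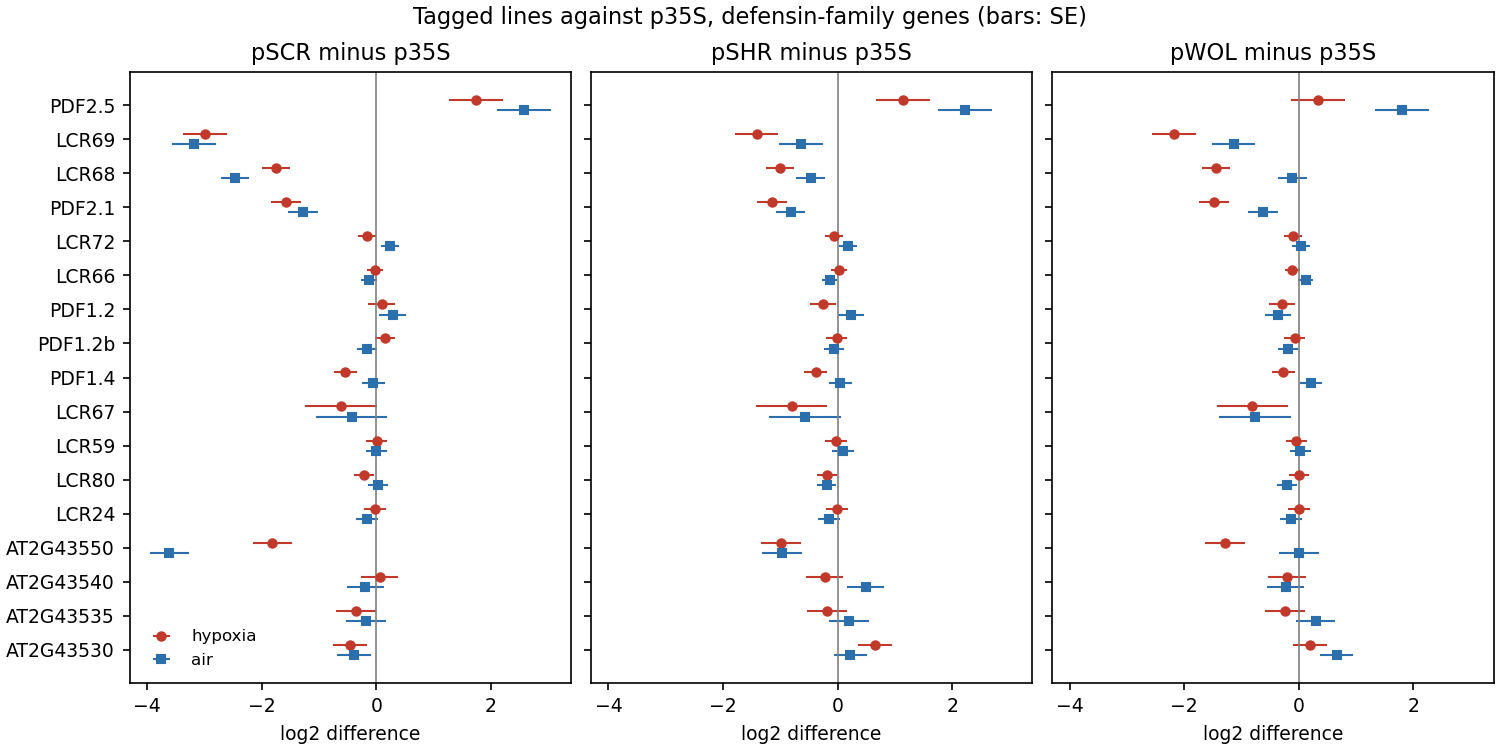
Log2 difference of each tagged line minus p35S (x axis) for the 3 genes and 14 further family genes (rows), hypoxia as circles above air as squares, with bars of 1 standard error. In the pSCR panel LCR69, LCR68, PDF2.1 and AT2G43550 stand left of 0 in both treatments and PDF2.5 right of it (2.58 in air).

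Of the further genes LCR68 alone had a called hypoxia difference. In pWOL it read 11.25 and 11.71 in hypoxia, against 12.80 and 12.45 in air, a difference of -1.15 ± 0.25 (limma adjusted p = 0.0122); it was 1 of 14 further genes called lower there, against 4.34% of all probe sets. That call was lost without pWOL air replicate 1 (-0.98) or pWOL hypoxia replicate 1 (-0.92). In pSCR LCR68 went the other way, by 0.90 ± 0.25 (limma adjusted p = 0.0493), 1 of 14 called higher, against 3.45% of all probe sets. That call was lost without any 1 of its 4 arrays (at the lowest 0.69), with the replicate block (adjusted p = 0.0580) and in the 3 other alternative fits.

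Of the loci beside AT2G43550 with a probe set, 0 of 3 were called in pSCR against p35S by limma in either treatment, and 0 had an unadjusted p below 0.05 there (differences from -0.46 to 0.061). AT2G43535 ranged from 9.08 to 10.73 and was called nowhere. AT2G43530, with values from 4.61 to 6.53, was lower in pSCR than in pSHR by -0.87 ± 0.21 (adjusted p = 0.0347) and than in pWOL by -0.85 ± 0.21 (adjusted p = 0.0259) by limma over both treatments. Each of these calls was lost on leaving out most single arrays, with values from -1.17 to -0.56. With LCR68 it made 2 of 14 further genes called lower in each of these comparisons, against 2.31% of all probe sets for pSHR and 4.73% for pWOL. AT2G43540 was lower in p35S polysomes (5.50 and 4.63) than in total RNA (6.14 and 6.99) in air, by -1.50 ± 0.32 (limma adjusted p = 0.0170). The limma adjusted p was 0.136 with a block for the lysate, taken from the replicate number, a pairing the labels do not state. Without replicate 2 of total RNA (-1.07) or of p35S (-1.06) that call was lost. PDF2.1 was higher in p35S polysomes (6.94 and 6.53) than in total RNA (5.71 and 5.64) in hypoxia, by 1.06 ± 0.26 (limma adjusted p = 0.0485), and the adjusted p was 0.195 with that block; the call was also lost without any 1 of its 4 arrays (0.85 to 1.26). Each was 1 of 14 further genes called in its direction, against 2.55% of all probe sets called lower in air and 1.75% called higher in hypoxia.

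Few other defence genes had a named probe set. Of 15 listed antimicrobial and pathogenesis-related genes 3 were measured, of 26 genes of jasmonate and ethylene signalling 1, and of 23 metal-handling genes 1. OSM34, an osmotin-like defence protein, rose in hypoxia by 1.76 in p35S, 1.79 in pSCR and 2.36 in pSHR (limma adjusted p of 0.0229, 0.0197 and 0.00445), whereas the thionins THI2.1 and THI2.2 were called in no comparison. It was also higher in pSCR than in p35S in hypoxia (1.71) and in air (1.69), and in pWOL than in p35S in hypoxia (2.05) and in air (2.52). All of these OSM34 calls but that in pWOL in air were lost without at least 1 single array, with differences between 1.13 and 2.14 in those fits. EIN3, a transcription factor of ethylene signalling, was lower in pWOL than in p35S in air by -1.06 (limma adjusted p = 0.0191), a call lost without any 1 of the 4 arrays (-1.11 to -1.01). The metallothionein MT1C was lower in p35S polysomes than in total RNA in air by -1.82 (limma adjusted p = 0.0308), and lower in pSHR than in p35S in hypoxia by -2.13 (limma adjusted p = 0.0237). The call against total RNA was lost without any 1 of its 4 arrays (-2.13 to -1.52), and that in pSHR without replicate 2 of p35S (-1.55) or of pSHR (-1.90).

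Across the 20 arrays LCR69 varied together with LCR68 (Pearson r = 0.866) and PDF2.1 (r = 0.811), and AT2G43550 with LCR68 (r = 0.897) and LCR69 (r = 0.772). PDF2.5 did not follow them, with r = -0.355 against LCR69 and -0.10 against AT2G43550. These correlations describe arrays that share groups, lines and amplification, and are not tests. By their ranks, LCR69 and AT2G43550 may have been chosen for low levels in pSCR against p35S in air. PDF2.5 may have been chosen for a high level in that comparison. How LCR69, AT2G43550 and PDF2.5 correlate with each other on the same arrays may thus follow in part from the choice. Among 13510 other single-gene probe sets, the profiles over the arrays most like that of PDF2.5 belonged to AT2G20515 (r = 0.918), AT1G73620 (r = 0.912) and AT1G62320 (r = 0.904). Those most like LCR69 were SAH7 (r = 0.942), AT5G05960 (r = 0.942) and AT3G18280 (r = 0.9405). Those most like AT2G43550 were AT4G27350 (r = 0.925), AT5G17210 (r = 0.906) and AT1G48750 (r = 0.905). Such likeness is of shape and not of level, and AT1G62320 ran only from 4.60 to 5.86. On the 2 pSHR hypoxia arrays AT2G20515 read 8.74 and 6.16 and AT1G73620 9.37 and 6.73, low on replicate 2 as PDF2.5 was. AT1G62320 read 5.28 and 5.16 there.

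**Figure D4:**
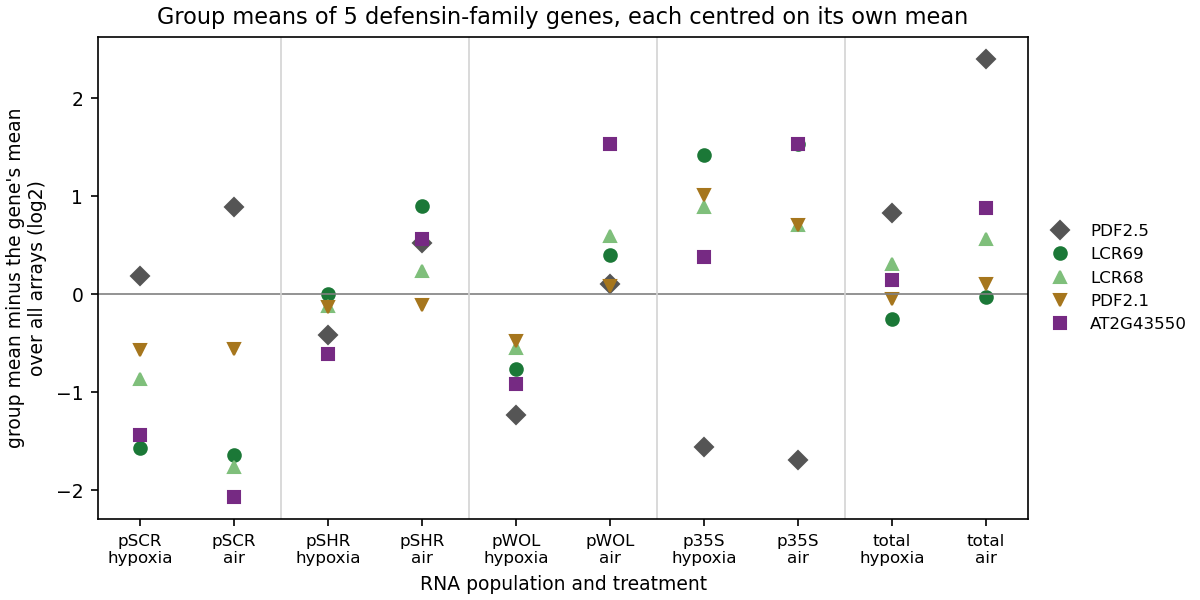
Group mean of each of 5 family genes minus that gene's mean over all 20 arrays (y axis, log2), by RNA population and treatment, hypoxia left of air. LCR69, LCR68, PDF2.1 and AT2G43550 lie below 0 in both pSCR groups and above it in both p35S groups, and PDF2.5 lies on the other side of 0 in each of these 4 groups.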

How the data were processed

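Levels of 22810 probe sets on 20 arrays were used as deposited. The authors' values are log2 expression made with RMA in the package affy, per the submitters' processing notes; which version or probe grouping they used, the labels leave unstated. RMA pulls low values towards a floor, so folds of weak genes are understated, and amplification from 400 pg of RNA in 2 rounds, per the labels' protocols, favours the 3 prime end. The number of arrays limits the precision.

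After leaving out 64 control probe sets, limma 3.58.1 in R 4.3.3 was fitted to 10 group means over all 20 arrays (10 residual and 3.30 prior degrees of freedom), with Benjamini-Hochberg adjustment over 22746 probe sets within each of 19 comparisons. Errors are standard errors of that fit. No filter on low values was applied; all 3 genes passed the alternative filter that drops the dimmest 25% of probe sets. Of the probe sets tested, 13513 had 1 gene, 503 several and 8730 none listed; 13436 matched the TAIR10.1 gene table. Coordinates are left out, the values having no named build. The naming rule took every member, family genes called in any comparison, listed defence genes called by at least 1 log2 unit, and the 3 most correlated probe sets per member; 2 peptide deformylases matched by symbol were left out. The members and lists were chosen with earlier results of these data known. Replicates correlated at 0.965 to 0.984 and no 2 arrays were identical. Deviations of same-numbered arrays correlated above 0.1 in 11 of 45 pairs of groups, so no block entered the fit. Alternatives were a replicate block, a lysate block (by replicate number), quantile normalization, the dim filter, trended robust moderation and leaving out each array.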

Additional observations from a re-analysis of the deposited data

How the results depend on the processing

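Probe sets called moved with single arrays in most comparisons, since each group has 2. Leaving out 1 array gave 309 to 443 for hypoxia against air in total RNA (665 with all), 514 to 1179 in p35S (1074), 475 to 1105 in pSCR (1356), 382 to 1539 in pSHR (1037) and 788 to 871 in pWOL (1937). For p35S against total RNA it gave 49 to 375 in hypoxia (654) and 429 to 660 in air (1438). Against p35S it gave 255 to 576 in hypoxia and 750 to 1532 in air for pSCR (1006 and 2262), 80 to 1343 and 66 to 298 for pSHR (861 and 569), and 282 to 1192 and 1214 to 1452 for pWOL (1885 and 2840). Over both treatments it gave 367 to 1545 for pSCR against pSHR (913), 789 to 1316 for pSCR against pWOL (1976) and 36 to 1063 for pSHR against pWOL (334). For the differences between responses it gave 0 to 33 in pSCR (6), 0 to 55 in pSHR (0) and 0 to 156 in pWOL (36). Other settings moved these counts: 0 for the pWOL response difference with the replicate block, 0 for the pSCR one without the dimmest probe sets (fewer were tested), and 7 for the pSHR one with trended robust moderation. With the replicate number taken to mark the lysate, as a block, p35S against total RNA gave 265 in air and 0 in hypoxia. Crossing the numbers in air, where they correlated at -0.331, was added after seeing the data and gave 1201 in air and 322 in hypoxia. The cause was not tested.

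For the genes, the replicate block brought AT2G43550 past the threshold in p35S (adjusted p = 0.0474) and pSHR (0.0462) under hypoxia in limma, and changed no other member's call; same-numbered arrays are not shown to be pairs. Of small differences, AT2G43550 in pWOL against p35S in air turned to 0.079 with quantile normalization, and ran from -0.23 to 0.22 without single arrays. Signs also turned without single arrays for hypoxia in PDF2.5 in p35S (-0.035 to 0.30) and pSHR (-1.97 to 0.078), and in LCR69 in p35S (-0.41 to 0.17) and pSCR (-0.55 to 0.69). They turned too for pSCR against pSHR in PDF2.5 (-0.029 to 0.99), the pSCR response difference in LCR69 (-0.43 to 0.81) and the pSHR one in AT2G43550 (-0.48 to 0.45).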
